A study of Homo sapiens with 10 samples.

Results

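The genes described here are 10 that control how a cell takes up, stores, releases and senses iron. They were taken by Ensembl gene ID from a ribosome profiling table of 20289 genes, and all 10 are in it: TFRC, SLC39A14 and SLC11A2 (entry of iron), FTH1, FTL and NCOA4 (storage in ferritin and release from it), SLC40A1 (export), and IREB2, ACO1 and FBXL5 (sensing). Their names come with the choice of IDs, because the table pairs no ID with a name. Ribosome profiling sequences the pieces of mRNA that ribosomes shield from nuclease, so a gene's value, in FPKM (fragment counts corrected for how long the gene is and how many fragments the library mapped), reflects its mRNA level and its translation together.

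Footprints came from CFPAC-1 and PANC-1, established lines of human pancreatic ductal adenocarcinoma. CFPAC-1 was sampled in 2 libraries under DMSO at 0.1% and 2 with 10 µM IKE, and PANC-1 in 2 libraries under DMSO at 0.1% and 4 with 1 µM IKE. IKE (imidazole ketone erastin) is a relative of erastin, a class of compound that blocks cystine import and induces ferroptosis. No dose was shared by the lines, and cells that had died were removed before lysis, so every value describes survivors. The exposure is labelled 24 h, whereas the protocol for the footprint extract speaks of 5 consecutive days, so its length is not settled here. The labels call the replicates biological without naming separate cultures, so the p-values measure the spread between these libraries.

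Ferroptosis is a form of cell death that needs iron, which drives the peroxidation of membrane lipids. Cells keep free iron low by matching uptake through the transferrin receptor against storage in ferritin, and the match is made largely at the level of translation and mRNA stability. When iron is scarce, the iron regulatory proteins bind a hairpin called the iron-responsive element: at the start of ferritin mRNAs this blocks the ribosome, and in the tail of the transferrin receptor mRNA it protects the message from decay. Plentiful iron releases them, so that ferritin is translated and the receptor message is lost. A footprint measurement sees both arms of this system.

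The element at the start of the FTL mRNA is shown because it is the part of a ferritin message through which the iron regulatory proteins act on the ribosome. It was read from the RefSeq sequence of GRCh38.p14 at chr19:48965329-48965358, plus strand, and covers the last 30 bases of a window that ends 50 bases after the annotated start of the gene, in the untranslated leader. Capitals mark the 6 bases of the hairpin loop, bases 39 to 44 from the start site, and U of the RNA is written as T.
FTL: gtctgtctcttgcttcaaCAGTGTttggac

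The letters CAGTGN were searched for in the first 50 bases of the annotated starts on hand. They occurred on the sense strand of 2277 of 35116 windows (6.48%) and on the opposite strand of 6.08%. With 5 paired bases on either side of the loop they occurred in 18 windows (0.0513%), and with a C just before the paired bases, as in the described element, in 8 (0.0228%). FTL was among these 8. Windows were matched by symbol and were held for 8 of the 10 genes, 13 in all. FTH1 and SLC39A14 had no window, so neither was searched. Of the windows beside that of FTL, 1 of NCOA4 had the loop letters without the pairing. Bases beyond the first 50, the tail of the message included, were not searched, so a gene without a match may still hold the element. A match to these letters is a description of the sequence.

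Depth and spread differed by line. With the first CFPAC-1 DMSO library set to 1.00, relative depth was 0.916 to 1.17 in CFPAC-1 and 0.211 to 0.877 in PANC-1; absolute depth is unknown. In PANC-1 IKE replicates 2, 3 and 4 the 10 most abundant genes of the library held 16.2%, 12.2% and 23.1% of summed FPKM, against 8.51% to 9.64% in the other 7 libraries. Among 6598 genes averaging 20 FPKM or more, log2 values within groups had a median SD of 0.147 for CFPAC-1 libraries and 0.441 for PANC-1 libraries. Marker genes of the labelled cell type could not be looked up, since only the 10 genes have names here.

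All 10 genes had a mean of at least 1 FPKM and were among the 13125 genes tested. The untreated cells are described first. With DMSO, the uptake genes TFRC and SLC39A14 had more footprints in PANC-1 than in CFPAC-1, and the exporter SLC40A1 and the sensor FBXL5 had fewer. These 4 of 10 genes passed the threshold (limma, Benjamini-Hochberg adjusted p under 0.05), 2 higher and 2 lower in PANC-1. Of all genes tested 37.9% passed it in this comparison, 16.8% higher and 21.1% lower, so the share among the iron genes was close to that of genes at large. SLC40A1 is counted among the 4, but it reached the filter only through CFPAC-1, so its call adds nothing to its values. The median log2 difference was 0.01 over the 10 genes and -0.03 over all genes. In a pool of cells, fewer cells that express a gene and less RNA per cell cannot be told apart.

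TFRC (ENSG00000072274) encodes the transferrin receptor, which brings transferrin-bound iron into the cell; the gene lies on chromosome 3 (196049284 to 196082090, RefSeq GRCh38.p14). Untreated CFPAC-1 gave 141 and 151 FPKM, untreated PANC-1 448 and 436 FPKM. The groups were far apart and each was tight. The fitted difference was 1.60 ± 0.28 on the log2(FPKM + 1) scale (SE; limma adjusted p = 0.00118), that is 3.02-fold.

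SLC39A14 (ZIP14, ENSG00000104635) carries iron that is not bound to transferrin, along with other metals, across the plasma membrane. Its level was 47.8 and 42.5 FPKM in CFPAC-1 DMSO and 168 and 127 FPKM in PANC-1 DMSO (difference 1.67 ± 0.44 on the log2 scale, SE; limma adjusted p = 0.0122). This call was lost without PANC-1 DMSO replicate 1 (adjusted p = 0.128) or replicate 2 (0.0530). The third gene of iron entry, SLC11A2 (DMT1, ENSG00000110911, chromosome 12, 50952263 to 51028886), which moves iron out of the endosome into the cytosol, gave 50.01 and 34.7 FPKM in untreated CFPAC-1, against 66.5 and 55.3 FPKM in untreated PANC-1. The groups did not overlap, but the log2 difference of 0.53 ± 0.32 missed the threshold (limma adjusted p = 0.214).

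SLC40A1 (ENSG00000138449) encodes ferroportin, the exporter through which cells release iron (chromosome 2, 189560590 to 189580786). It was low in CFPAC-1, at 6.50 and 5.12 FPKM under DMSO and 4.94 and 4.63 FPKM under IKE. In PANC-1 it was at 0.19 FPKM in DMSO replicate 1, at 0.31 FPKM in IKE replicate 1 and listed at 0 in the other 4 libraries. Every CFPAC-1 library was thus above every PANC-1 library. SLC40A1 reached the filter at a mean of 1 FPKM only through CFPAC-1, where it is high, so it had to differ between the lines and its call adds nothing to these values. The log2 difference in DMSO was -2.63 ± 0.38 (SE; limma adjusted p = 0.000286), and its size rests on the pseudocount: it was -5.11 with 0.1 and -1.08 with 5, with the call kept in both.

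FBXL5 (ENSG00000118564, chromosome 4, 15604381 to 15681569) is the iron-sensing part of a ubiquitin ligase that marks the iron regulatory protein IRP2 for destruction when iron is plentiful. It was at 37.5 and 33.2 FPKM in CFPAC-1 DMSO and at 7.02 and 7.80 FPKM in PANC-1 DMSO. The log2 difference was -2.11 ± 0.46 (SE; limma adjusted p = 0.00411), or 4.32-fold less in PANC-1. Its target IRP2 is encoded by IREB2 (ENSG00000136381, chromosome 15, 78437431 to 78501453), which gave 40.9 and 45.0 FPKM in untreated CFPAC-1, against 27.4 and 38.1 FPKM in untreated PANC-1. IREB2 was lower in both PANC-1 libraries, but the difference of -0.40 ± 0.37 on the log2 scale missed the threshold (limma adjusted p = 0.434).

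ACO1 (ENSG00000122729, chromosome 9, 32384643 to 32454769) encodes IRP1, which is cytosolic aconitase when it carries an iron-sulfur cluster and an RNA-binding regulator when it does not. The CFPAC-1 DMSO libraries were at 39.2 and 35.8 FPKM and the PANC-1 DMSO libraries at 8.33 and 38.3 FPKM. The PANC-1 replicates lay 4.60-fold apart, and 1 of them fell within the CFPAC-1 range. No difference could be read from this (log2 difference -1.01 ± 0.62, limma adjusted p = 0.228), and its sign turned when PANC-1 DMSO replicate 1 was left out.

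Ferritin is a hollow shell of heavy and light subunits. The heavy subunit, FTH1 (ENSG00000167996, chromosome 11, 61964285 to 61967634), oxidises the iron that enters, and the light subunit, FTL (ENSG00000087086, chromosome 19, 48965309 to 48966879), helps it to mineralise. FTH1 was at 795 and 913 FPKM in CFPAC-1 DMSO and at 2815 and 1046 FPKM in PANC-1 DMSO. FTL gave 80.2 and 107 FPKM in untreated CFPAC-1, against 143 and 109 FPKM in untreated PANC-1. Both had their higher values in PANC-1 with no overlap, and neither difference passed the threshold (limma adjusted p = 0.124 for FTH1 and 0.437 for FTL). NCOA4 (ENSG00000266412, chromosome 10, 46005088 to 46030623), the receptor that delivers ferritin to the lysosome to set its iron free, gave 134 and 131 FPKM in untreated CFPAC-1, against 66.0 and 115 FPKM in untreated PANC-1 (limma adjusted p = 0.178). Without overlap between the lines were 9 of the 10 genes, all but ACO1, where 70.6% of all genes tested had none. The 9 include SLC40A1, which reached the filter only through CFPAC-1.

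**Figure D1:**
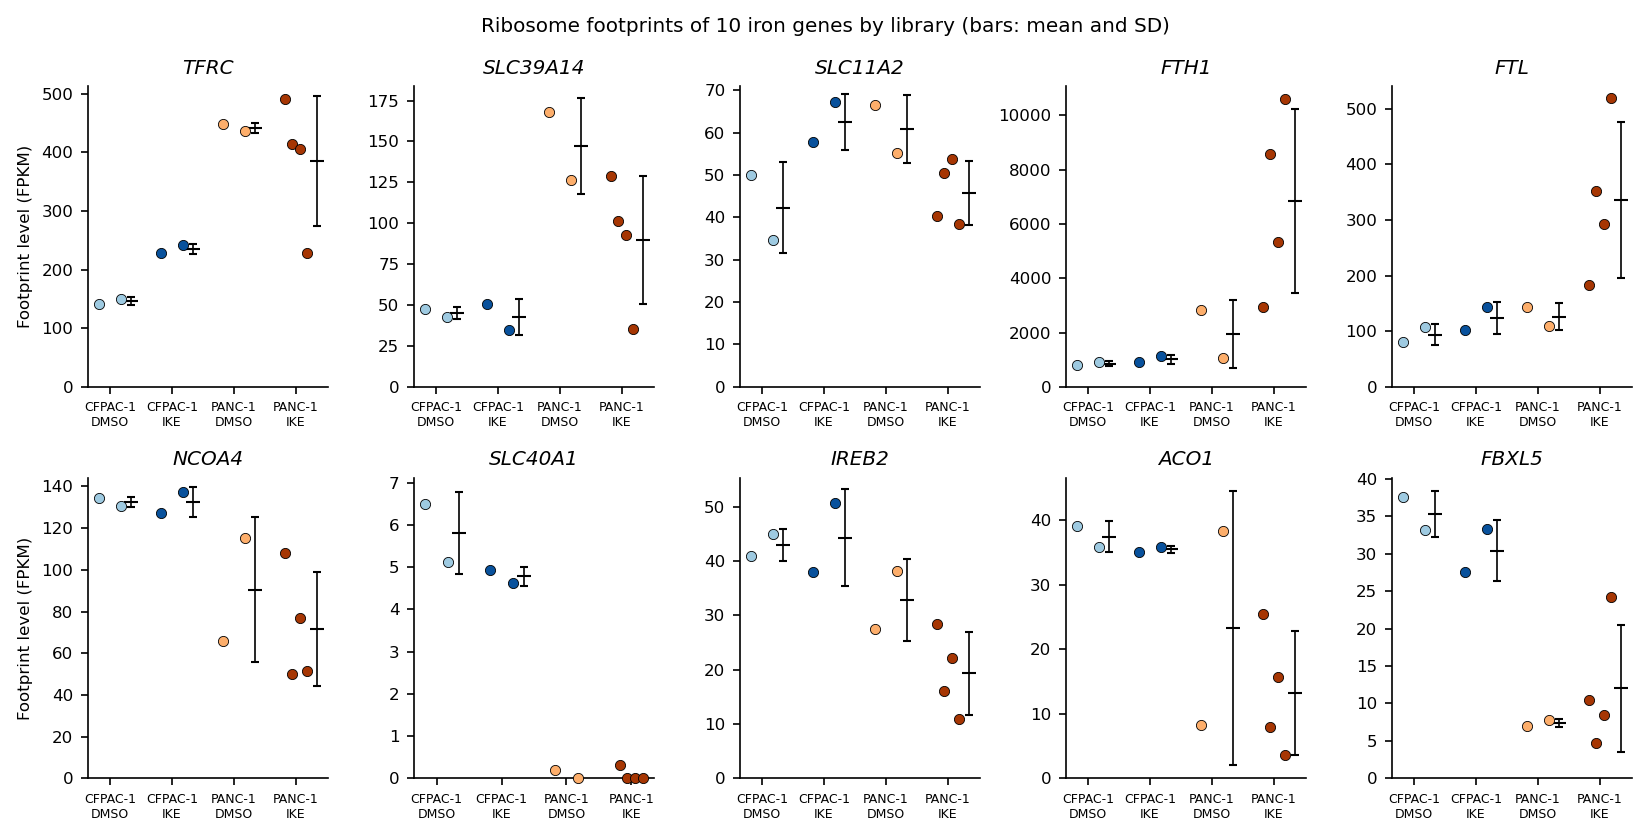
Footprint level in FPKM (linear axes from 0) of the 10 iron genes in each library, with points for libraries and, beside them, the group mean with its SD; no mean is drawn for SLC40A1 in PANC-1, where most libraries are listed at 0. TFRC and SLC39A14 are higher and SLC40A1 and FBXL5 lower in PANC-1 DMSO than in CFPAC-1 DMSO, while FTH1 ranges from 2934 to 10588 FPKM among the PANC-1 IKE libraries.

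The next comparison set 10 µM IKE against DMSO in CFPAC-1. No iron gene passed the threshold there, where 0.35% of all genes tested did (46 of 13125). The smallest p-values belonged to 2 genes of iron entry, TFRC and SLC11A2. At an unadjusted p under 0.05 stood 2 of the 10 genes, against 11.7% of all genes tested, and 3 of 10 had groups without overlap, against 42.6%. The median log2 fold change was 0.01 over the 10 genes and -0.01 over all genes.

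TFRC had 141 and 151 FPKM under DMSO and 229 and 241 FPKM under IKE in CFPAC-1. Both IKE libraries lay above both DMSO libraries, and the gap between the groups was several times the distance between replicates. The log2 fold change was 0.69 ± 0.16 (SE), or 1.61-fold with a 95% confidence interval of 1.25 to 2.07, larger than that of 96.4% of genes. It did not pass the adjustment over all genes (limma adjusted p = 0.136; 0.0545 to 1 over 23 alternatives), so a change of TFRC is not shown at this number of libraries.

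SLC11A2 had 50.01 and 34.7 FPKM under DMSO and 57.8 and 67.2 FPKM under IKE. Both IKE values were the higher ones, and the log2 fold change came to 0.57 ± 0.18 (SE, limma adjusted p = 0.260). The model takes CFPAC-1 as the tighter line, but SLC11A2 spread more there (SD 0.279) than in PANC-1 (0.221), so this SE may be too small. Fitted on the CFPAC-1 libraries alone, the SE was 0.22 and the unadjusted limma p 0.0687. Without CFPAC-1 DMSO replicate 2 the log2 fold change was 0.31. The other importer, SLC39A14, had 47.8 and 42.5 FPKM under DMSO and 50.6 and 34.8 FPKM under IKE, and these groups overlapped (log2 fold change -0.10 ± 0.26, limma adjusted p = 0.941).

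Neither ferritin subunit passed the threshold in CFPAC-1. FTH1 had 795 and 913 FPKM under DMSO and 900 and 1129 FPKM under IKE, and FTL 80.2 and 107 FPKM under DMSO and 103 and 143 FPKM under IKE. In each gene the DMSO and IKE values overlapped, with fold changes of 1.18 for FTH1 (95% confidence interval 0.77 to 1.82) and 1.31 for FTL (0.913 to 1.87). The limma adjusted p was 0.823 and 0.578. NCOA4 was almost level, at 134 and 131 FPKM under DMSO and 127 and 137 FPKM under IKE, and its fold change of 0.998 had an interval from 0.746 to 1.34.

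None of the sensors passed it either. ACO1 had 39.2 and 35.8 FPKM under DMSO and 35.1 and 35.9 FPKM under IKE, IREB2 40.9 and 45.0 against 38.0 and 50.6 FPKM, and FBXL5 37.5 and 33.2 against 27.6 and 33.3 FPKM. Adjusted p-values from limma were 0.977, 0.99 and 0.841. The exporter SLC40A1 was slightly lower in both IKE libraries (values above), with a log2 fold change of -0.23 ± 0.22 and limma adjusted p = 0.768. These intervals do not exclude moderate changes: for ACO1 the interval of the fold change ran from 0.547 to 1.65. ACO1 spread far more among PANC-1 libraries (SD 1.2) than among those of CFPAC-1 (SD 0.0647), so its interval may be too wide. With the CFPAC-1 libraries fitted alone, the SE of its log2 fold change fell from 0.361 to 0.107.

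In PANC-1 with 1 µM IKE, footprints of both ferritin genes were more abundant in all 4 IKE libraries than in either DMSO library, but the replicates were scattered and no iron gene passed the threshold. No gene at all did in this comparison (0 of 13125, 0%, with limma; 1429 or 10.9% at an unadjusted p under 0.05), so the absence of a call says little about any single gene. Of the 10 iron genes, 2 stood at an unadjusted p under 0.05, FTH1 and FTL, and 3 had groups without overlap, against 22.4% of all genes. The median log2 fold change was -0.30 over the 10 genes and -0.02 over all genes, with 3 genes above 0 and 7 below; SLC40A1, 1 of the 7, was at or near 0 in every PANC-1 library.

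FTH1 had 2815 and 1046 FPKM in PANC-1 DMSO replicates 1 and 2 and, in the order of IKE replicates 1 to 4, 2934, 8576, 5331 and 10588 FPKM. The lowest IKE library was only 1.04-fold above the higher DMSO library, and the highest was 3.61-fold above the lowest IKE library. The log2 fold change was 1.84 ± 0.54 (SE), or 3.58-fold with a 95% confidence interval of 1.58 to 8.11 (limma adjusted p = 0.379; 0.156 to 1 over 23 alternatives). With IKE replicates 2 and 4 both left out it was 1.2 (limma adjusted p = 0.574), and it was 2.55 without DMSO replicate 1 and 1.12 without DMSO replicate 2. The SD of FTH1 was 0.872 in PANC-1 and 0.191 in CFPAC-1, so the SE of 0.54 from the shared model may be too small. Fitted on the PANC-1 libraries alone, the SE was 0.69 and the unadjusted limma p 0.0364, against 0.00572 in the shared model. FTH1 was the 61st and 177th most abundant gene of the DMSO libraries and the 57th, 11th, 19th and 11th of the IKE libraries. Its share of summed FPKM was 0.20% and 0.0888% under DMSO and 0.228%, 0.628%, 0.402% and 0.821% with IKE.

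FTL, at a lower level, had the same order of libraries within the IKE group. It was at 143 and 109 FPKM under DMSO and at 182, 351, 292 and 518 FPKM in IKE replicates 1 to 4. No IKE library reached down to the DMSO libraries. The log2 fold change was 1.32 ± 0.45 (SE), or 2.50-fold with a 95% confidence interval of 1.26 to 4.96 (limma adjusted p = 0.399). With IKE replicates 2 and 4 both left out it was 0.88 (limma adjusted p = 0.61, unadjusted p = 0.0678). It was 1.52 without DMSO replicate 1 and 1.13 without DMSO replicate 2. Processed copies of ferritin genes are common in the human genome, and the sources used here do not say how the authors' counting shared reads among them, so the absolute levels of FTH1 and FTL are uncertain.

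The IKE libraries with more ferritin footprints were also the shallower ones. Relative depth was 0.877, 0.239, 0.50 and 0.211 in IKE replicates 1 to 4, in the reverse order of FTH1 and of FTL. DMSO replicate 2, at a depth of 0.328, had the lowest FTH1 and FTL of the line. The share of the 10 most abundant genes moved with ferritin in the same libraries. The part of depth and of this share in the result was not tested. The scaling that leaves out the 1% most abundant genes of each library gave log2 fold changes of 1.96 for FTH1 and 1.44 for FTL.

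**Figure D2:**
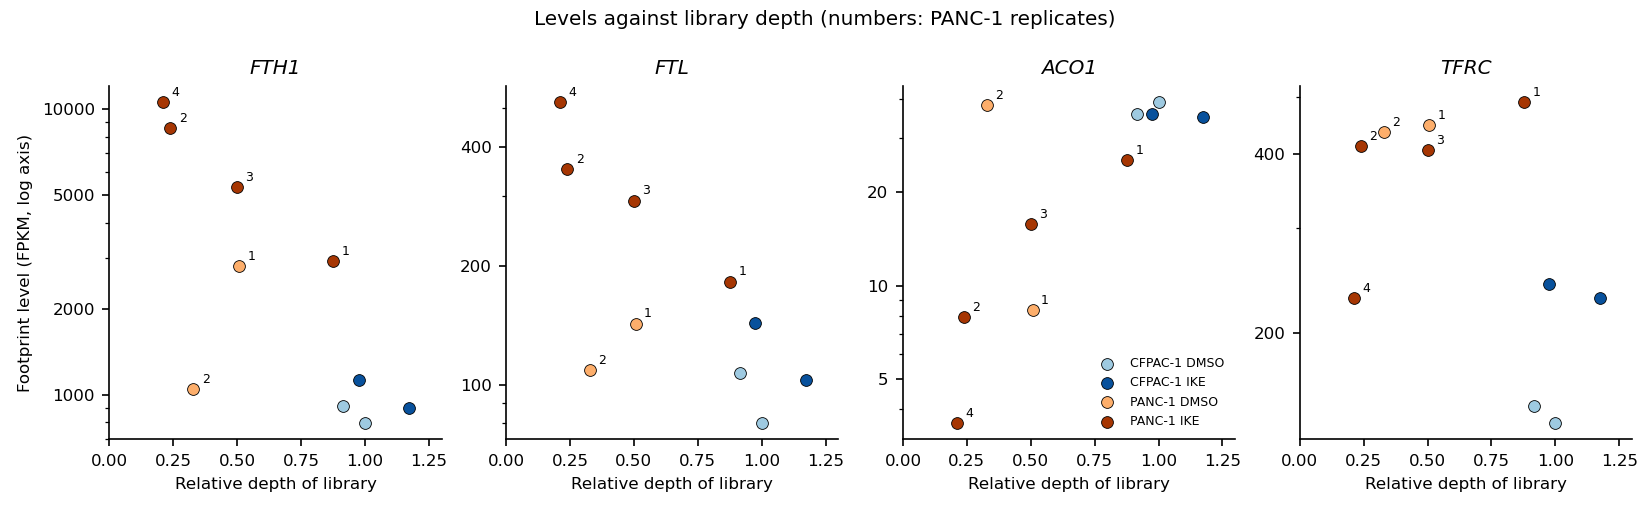
Footprint level (FPKM, log axis) of FTH1, FTL, ACO1 and TFRC against the relative depth of the library (CFPAC-1 DMSO replicate 1 = 1), with PANC-1 replicates numbered. Among the 4 PANC-1 IKE libraries FTH1 and FTL are higher and ACO1 lower where depth is lower, while PANC-1 DMSO replicate 2, at 0.328, has the lowest FTH1 and the highest ACO1 of the line.

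The other 8 genes missed the threshold in PANC-1 as well. TFRC was at 448 and 436 FPKM under DMSO and, in the order of IKE replicates 1 to 4, at 490, 414, 406 and 229 FPKM. The first 3 IKE libraries lay around the DMSO values and replicate 4 lay well below. The log2 fold change of -0.25 ± 0.31 missed the threshold (limma adjusted p = 0.786), and without IKE replicate 4 it was -0.02. SLC39A14 had 168 and 127 FPKM under DMSO and 129, 101, 92.5 and 35.5 FPKM under IKE, again lowest in replicate 4 (log2 fold change -0.84 ± 0.49, limma adjusted p = 0.545). SLC11A2 was the only one of the 3 with no overlap: 66.5 and 55.3 FPKM under DMSO against 40.3, 50.6, 53.7 and 38.5 FPKM under IKE (log2 fold change -0.41 ± 0.35, limma adjusted p = 0.685).

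NCOA4, the ferritin receptor of the lysosomal route, was at 66.0 and 115 FPKM under DMSO and at 108, 49.8, 77.0 and 51.3 FPKM under IKE, with overlapping groups (limma adjusted p = 0.738). IREB2 was at 27.4 and 38.1 FPKM under DMSO and at 28.4, 16.0, 22.1 and 10.9 FPKM under IKE. The upper IKE value lay between the DMSO values and the other 3 below both, for a log2 fold change of -0.80 ± 0.41 (limma adjusted p = 0.496). ACO1 spread most among the 10 genes: 8.33 and 38.3 FPKM under DMSO and 25.4, 7.91, 15.8 and 3.60 FPKM under IKE, 7.06-fold between the IKE extremes. Its fold change was 0.606 with an interval from 0.212 to 1.73 and turned in sign without DMSO replicate 2.

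FBXL5 was at 7.02 and 7.80 FPKM under DMSO and at 10.5, 4.76, 8.50 and 24.2 FPKM under IKE in PANC-1. Its value in IKE replicate 4 was above the rest of the line and below every CFPAC-1 library. The log2 fold change was 0.42 ± 0.51 with all libraries (limma adjusted p = 0.784) and 0.03 without IKE replicate 4. SLC40A1, which the CFPAC-1 libraries hold at 4.63 FPKM or more, was listed at 0 in that same library. That library was the shallowest, at a relative depth of 0.211, and the cause of its FBXL5 value was not tested.

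**Figure D3:**
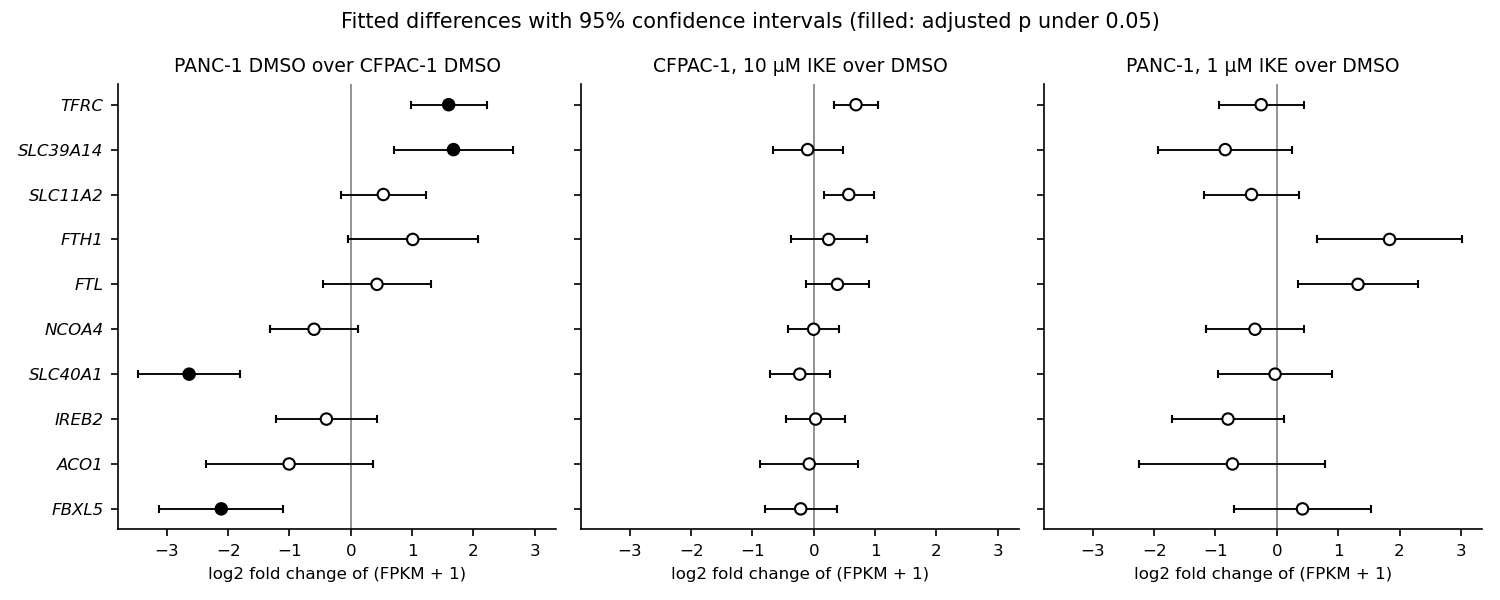
Fitted log2 fold changes of (FPKM + 1) with 95% confidence intervals for the 10 iron genes: PANC-1 over CFPAC-1 in DMSO, IKE over DMSO in CFPAC-1 and IKE over DMSO in PANC-1. Filled points passed an adjusted p of 0.05, which only TFRC, SLC39A14, SLC40A1 and FBXL5 did, and only between the untreated lines. SLC40A1 reached the filter only through CFPAC-1. The PANC-1 intervals are wider than those of CFPAC-1.

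Spread among PANC-1 replicates was itself large for several of these genes. The within-group SD of log2 values was 1.2 for ACO1 and 0.872 for FTH1, larger than for 98.7% and 94.9% of genes averaging 20 FPKM or more, in that line. In CFPAC-1 the same SDs were 0.0647 and 0.191. NCOA4 had 0.0576 in CFPAC-1 and 0.532 in PANC-1. SLC11A2 was the exception, with 0.279 in CFPAC-1 and 0.221 in PANC-1.

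Ratios taken within a library do not depend on how that library was scaled. The ratio of FTH1 to TFRC FPKM, storage against uptake, was 5.64 and 6.06 in CFPAC-1 DMSO and 3.93 and 4.68 in CFPAC-1 IKE, lower in both IKE libraries. In PANC-1 it was 6.28 and 2.40 under DMSO and 5.98, 20.7, 13.1 and 46.3 in IKE replicates 1 to 4, above both DMSO libraries in 3 of 4. IKE replicate 1 of PANC-1 lay inside the DMSO range. FTL to TFRC was 0.569 and 0.710 in CFPAC-1 DMSO and 0.448 and 0.593 in CFPAC-1 IKE, where the groups overlapped. The PANC-1 ratios were 0.319 and 0.250 in DMSO and 0.372, 0.85, 0.719 and 2.27 in IKE replicates 1 to 4, with every IKE library above both DMSO libraries.

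The ratio of FTH1 to NCOA4 ran from 5.92 to 8.21 over the 4 CFPAC-1 libraries. In PANC-1 it was 42.7 and 9.09 under DMSO and 27.2, 172, 69.3 and 206 with IKE, so the DMSO libraries already differed. Between the ferritin subunits the ratio of FTH1 to FTL was 9.91 and 8.53 in CFPAC-1 DMSO, 8.77 and 7.88 in CFPAC-1 IKE, 19.7 and 9.59 in PANC-1 DMSO and 16.1, 24.4, 18.2 and 20.4 in PANC-1 IKE. In both of these ratios PANC-1 DMSO replicate 2 was the PANC-1 library nearest to CFPAC-1. IREB2 and ACO1, the pair of iron regulatory proteins, were at a ratio of 1.05 to 1.41 in CFPAC-1 and of 0.995 to 3.29 in PANC-1. No test between groups was made on ratios, since the genes were picked with results of these data known.

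**Figure D4:**
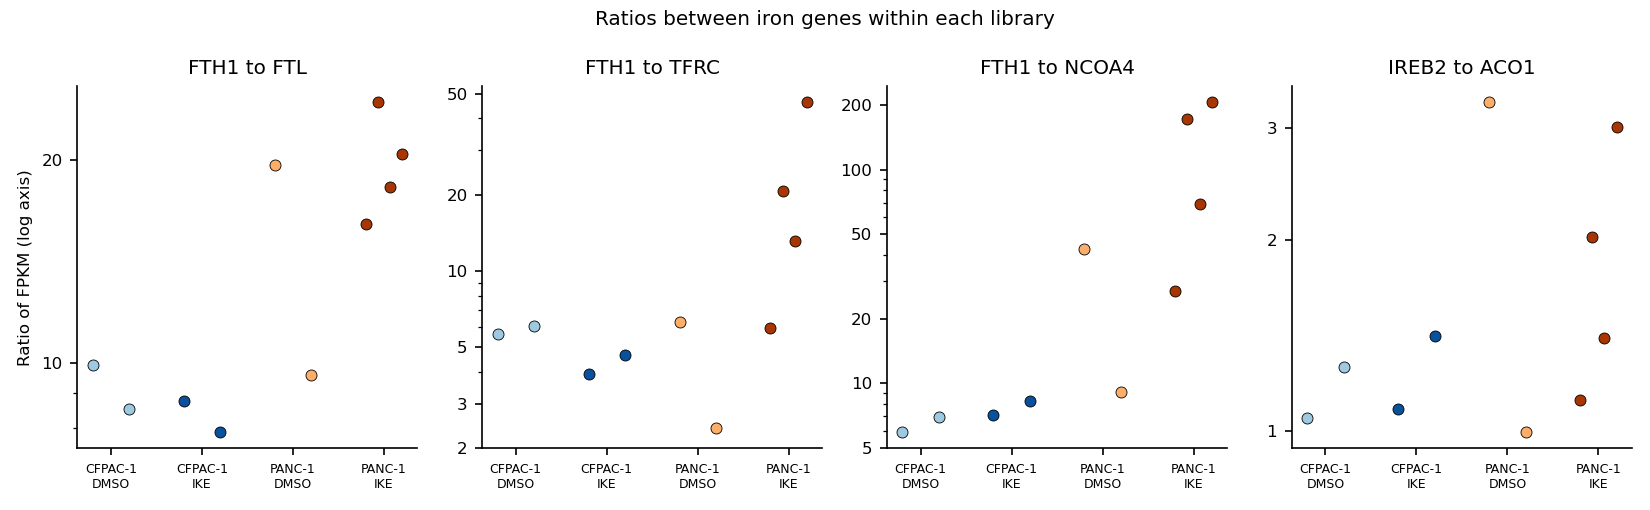
Ratios of FPKM (log axes) within each library for FTH1 to FTL, FTH1 to TFRC, FTH1 to NCOA4 and IREB2 to ACO1, with 1 point per library. CFPAC-1 libraries lie close together, whereas FTH1 to TFRC spans 2.40 to 46.3 and FTH1 to NCOA4 spans 9.09 to 206 in PANC-1.

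How far the IKE effect of PANC-1 departed from that of CFPAC-1 was tested as a contrast of its own; line and dose cannot be told apart in it. No iron gene passed the threshold, where 3 of 13125 genes did (0.0229%). The unadjusted p was under 0.05 for 3 of the 10 genes, against 12.5% of all genes. FTH1 had a log2 difference of 1.60 ± 0.61, PANC-1 minus CFPAC-1 (limma adjusted p = 0.33), which was 0.88 without PANC-1 DMSO replicate 2 and 2.31 without PANC-1 DMSO replicate 1. TFRC had one of -0.94 ± 0.35 (0.326) and SLC11A2 one of -0.98 ± 0.40 (0.353). For SLC11A2, both CFPAC-1 IKE libraries were above and all 4 PANC-1 IKE libraries below their own DMSO values. FTL, at 0.94 ± 0.51 (limma adjusted p = 0.471), leaned the same way as FTH1.

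The genes also differed in how they varied together. As a measure of likeness, Pearson's r was taken over the 10 libraries on log2(FPKM + 1) after each line's mean had been subtracted, against the other 6597 genes averaging 20 FPKM or more; the libraries share the depth differences given above, and no test was made. FTL ranked 26th of these genes in likeness to FTH1 (r = 0.95), and FTH1 ranked 15th in likeness to FTL. IREB2, NCOA4 and ACO1 ran against FTH1, with r of -0.90, -0.85 and -0.83. Without PANC-1 IKE replicates 2 and 4, over 8 libraries, r was 0.89 for FTL and -0.77, -0.60 and -0.61 for IREB2, NCOA4 and ACO1. TFRC had r of -0.43 to FTH1, and of 0.68 to SLC39A14, 0.66 to IREB2, 0.63 to SLC11A2, 0.55 to ACO1 and 0.47 to NCOA4. In likeness to TFRC, SLC39A14 ranked only 630th of the 6597 genes, IREB2 759th, SLC11A2 916th, ACO1 1365th and NCOA4 1798th. TFRC was at rank 4203 in likeness to FTH1. Many genes outside the iron set were thus more like TFRC than these were, so likeness to TFRC does not set the iron genes apart. In likeness to FTH1, IREB2, NCOA4 and ACO1 ranked 6512th, 6354th and 6305th, toward the low end, and SLC39A14 5567th (r = -0.70). The genes most like FTH1 and TFRC were ENSG00000143575 (r = 0.99) and ENSG00000171867 (r = 0.98), which have no name here.

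FPKM is scaled by gene length, so levels can be set in order, with the limit on FTH1 and FTL given above. The sources used here do not say whether that length covers the coding part or the whole message. The order between genes, and the level of a ratio between them, may depend on it. As listed, FTH1 had the highest value of the 10 in all 10 libraries, and SLC40A1 the lowest. In CFPAC-1 DMSO, TFRC at 146 ± 7.0 FPKM (SD, n = 2) and NCOA4 at 133 ± 2.4 came next, then FTL at 93.6 ± 18.9. SLC39A14 (45.1 ± 3.8), IREB2 (43.0 ± 2.9), SLC11A2 (42.3 ± 10.8), ACO1 (37.5 ± 2.4) and FBXL5 (35.3 ± 3.1) followed, with neighbours in this order closer than their spread. In PANC-1 DMSO the order below FTH1 was TFRC at 442 ± 8.6 FPKM (SD, n = 2), SLC39A14 at 147 ± 29, FTL at 126 ± 24, NCOA4 at 90.5 ± 34.7, SLC11A2 at 60.9 ± 7.9, IREB2 at 32.8 ± 7.6, ACO1 at 23.3 ± 21.2 and FBXL5 at 7.41 ± 0.55. There the values of SLC39A14 and FTL overlapped, as did those of FTL and NCOA4, NCOA4 and SLC11A2, and IREB2 and ACO1, and the SD of ACO1 was larger than its distance from FBXL5, so none of these neighbours differed beyond their spread.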

How the data were processed

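Per the file headers, the authors deposited 1 FPKM value per gene and library; each of the 10 columns was matched to a library by name. Tools listed without role or order, per the submitters' processing notes, are RSEM, STAR, Bowtie2 2.2.8, fastp and DESeq2, and the build is GRCh38. Per the labels' protocols, ribosomes were arrested with cycloheximide, lysates digested with RNase I and rRNA removed. The sources used here give no annotation, strand setting or length filter.

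Genes averaging 1 FPKM or more were tested with limma 3.58.1 in R 4.3.3 on log2(FPKM + 1): 4 groups in 1 model (6 residual degrees of freedom), 1 variance weight per line, empirical Bayes (trend on the mean), and Benjamini-Hochberg adjustment over 13125 genes. Fold changes on this scale understate changes of low values. On simulated IKE effects the CFPAC-1 p-values were too small, and more of the CFPAC-1 calls were false than the threshold allows, so its intervals may be too narrow; the contrasts between the lines were not simulated. Relative depth came from the steps of low FPKM values. The genes, lists and tests were chosen with earlier results of these data known. Every one of the 10 genes is named by rule. Further lists of iron, heme and autophagy genes and cell type markers were not tested, because the reference table matched no Ensembl ID to a name. Alternatives changed the pseudocount, filter, weights, scaling, trend, libraries and replicate block.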

Additional observations from a re-analysis of the deposited data

Results flagged for a closer look

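SLC11A2, the endosomal iron transporter, had a log2 difference of -0.98 between the IKE effects of the lines (PANC-1 minus CFPAC-1). It was singled out because both CFPAC-1 IKE libraries lay above the mean of their DMSO libraries and all 4 PANC-1 IKE libraries lay below theirs. The difference itself missed the threshold (limma adjusted p = 0.353), and line and dose cannot be told apart in it. No library of the PANC-1 IKE group stood apart from the other 3 by Dixon's criterion in the 12 levels and ratios checked, where chance gives about 1 in 20.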

How the results depend on the processing

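Iron genes past the threshold numbered 0 for both IKE effects and for their difference in each alternative run, and 3 or 4 between the untreated lines. SLC40A1 has no value under the filter at a mean of 5 FPKM. Of 906 refitted effects of single iron genes, 877 kept direction and side of the threshold, 3 lost a call and 26 turned in sign. The lost calls lay between the untreated lines: FBXL5 with the replicate block (-1.87, limma adjusted p = 0.0573), and SLC39A14 without PANC-1 DMSO replicate 1 (1.47) or 2 (1.88). The block fit used replicates 1 and 2 only and compared the lines at replicate 1. Its values between the lines are therefore not a refit of the difference of the DMSO means. Quantile normalization and median scaling shifted the median of all genes between the untreated lines by 0.13 and 0.11 (log2), with 4 iron genes called in each. Over all genes, IKE in CFPAC-1 gave 46 calls, against 77 with a pseudocount of 5, 21 without PANC-1 IKE replicates 2 and 4 (chosen after seeing the data), 9 with the block, 1 with an unweighted shared spread, 0 from CFPAC-1 alone, and 16 to 44 with 1 library left out. IKE in PANC-1 gave 0 to 2 calls and the difference, at 3, gave 0 to 6. Between the lines 4970 genes passed, and 2304 with the block, where the lines were compared at replicate 1.

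Deviations of same-numbered libraries, replicates 1 and 2, were correlated over genes at r = 0.049 (CFPAC-1) and -0.21 (PANC-1). These values show no pairing by number, but so few libraries cannot exclude it. The fit with the replicate block used replicates 1 and 2 only, so PANC-1 IKE replicates 3 and 4 were left out of it. It called 0 iron genes for each IKE effect and their difference, and 3 between the lines, taken at replicate 1. There IKE in PANC-1 turned in sign to -0.044 for FBXL5, 0.069 for SLC40A1 and 0.027 for TFRC. In these balanced groups the block itself leaves an IKE fold change as it is, so these turns came from the libraries left out. Without PANC-1 IKE replicates 2 and 4 the IKE effect in PANC-1 turned to 0.14 for ACO1, 0.064 for NCOA4, 0.069 for SLC40A1 and 0.014 for TFRC. The difference turned to 0.21 for ACO1 and 0.066 for NCOA4. NCOA4 in CFPAC-1 turned to 0.015 with median scaling, 0.011 with quantile normalization and 0.044 with scaling outside the 1% most abundant genes. With 1 library left out, these ranges crossed 0. For IKE in PANC-1 they were -1.76 to 0.32 (ACO1), -0.75 to 0.041 (NCOA4) and -0.15 to 0.097 (SLC40A1). For the difference they were -1.69 to 0.39 (ACO1) and -0.75 to 0.044 (NCOA4), and between the lines -2.04 to 0.032 (ACO1). For IKE in CFPAC-1 they were -0.17 to 0.23 (IREB2), -0.057 to 0.052 (NCOA4) and -0.36 to 0.16 (SLC39A14). Beyond the libraries or scaling used, the cause was not tested for any of these turns.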
